A study of Mus musculus with 6 samples.

Results

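The transcript levels of 39 genes of DNA replication and S phase were compared between intestinal epithelial cells with and without caspase-8, the protease that starts death-receptor apoptosis and restrains necroptosis. The genes were listed by their known function, with 40 symbols in all, and 39 of them were among the 18193 genes measured. Chaf1a was not analysed here. Each gene is represented by its brightest probe set, that is, among those paired with 1 gene, the one of highest mean signal across the 6 arrays. All animals were C57BL/6 mice that carried the floxed caspase-8 gene. The 3 floxed controls were villinCre negative, and the 3 caspase-8 deficient animals were villinCre positive. The villin promoter drives Cre in gut epithelium, so other cells in a preparation keep the gene. No group carried Cre without the floxed gene, so an effect of Cre itself and one of losing caspase-8 cannot be told apart. The labels do not give age, sex or gut segment.

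Values are log2 expression from an Affymetrix array, made with RMA, and were tested with limma over all genes. Adjusted p-values are Benjamini-Hochberg over all genes, with a threshold of 0.05, and errors are SD over 3 arrays or the standard error (SE) of a difference. Array medians lay between 4.85 and 4.91. The 9 epithelial markers (among them Epcam, Cdh1 and Vil1) averaged 12.4 to 12.5 on every array. Casp8 read 10.53, 9.74 and 10.24 in control arrays against 9.27, 9.56 and 10.40 in deficient arrays, with overlapping groups (difference −0.43, SE 0.31, limma adjusted p = 0.518). The labels do not say which exons are floxed, so its probe set does not check the genotypes. Deficient replicate 1 stood apart in 6 endothelial markers, with a mean of 6.57 against 3.26 to 3.78 on the other arrays.

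A chromosome is copied once per cell cycle in steps that these genes serve. In G1, the origin recognition complex, Cdc6 and Cdt1 load a ring of Mcm2 to Mcm7 onto DNA. Cdc45 and the GINS proteins turn the ring into a running helicase, polymerases extend the new strands behind it, and nucleotide enzymes supply the building blocks. Many of these genes are E2F targets, transcribed as cells enter S phase. In the gut epithelium, dividing cells lie in the crypts, and the differentiated cells of the villus no longer replicate. In bulk samples such as these, fewer dividing cells and less RNA per dividing cell cannot be told apart.

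Without caspase-8, the replication genes stood lower nearly throughout, by a small amount that no single gene carried past the threshold. Of the 39 genes, 38 had a lower mean in the deficient cells and 1, Gins2, a higher one, while 46.1% of all genes measured were lower. The median difference was −0.38 on the log2 scale, or 1.30-fold lower, against 0.022 over all genes and −0.01 over the brighter 9097 genes. The differences ran from −0.70 for Lig1 to 0.03 for Gins2, with a median SE of 0.15. In limma 0 of 39 genes passed, where 0.775% of all genes did in either direction and 0.467% passed as lower, so the count is near its background. The smallest adjusted p was 0.0788, for Lig1. At an unadjusted limma p under 0.05, 21 of 39 were lower and 0 higher. Of all genes 8.53% were lower at that level, and 1129 of the brighter 9097, where 36 of the 39 members lie. In 19 of 39 genes every deficient array lay below every control, against 11.2% of all genes and 16.6% of the brighter 9097. Under the alternatives tried, 1 gene passed without dim genes (1.84% of 9097 genes were lower there) and 7 with array weights (3.87% of all genes lower).

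**Figure D1:**
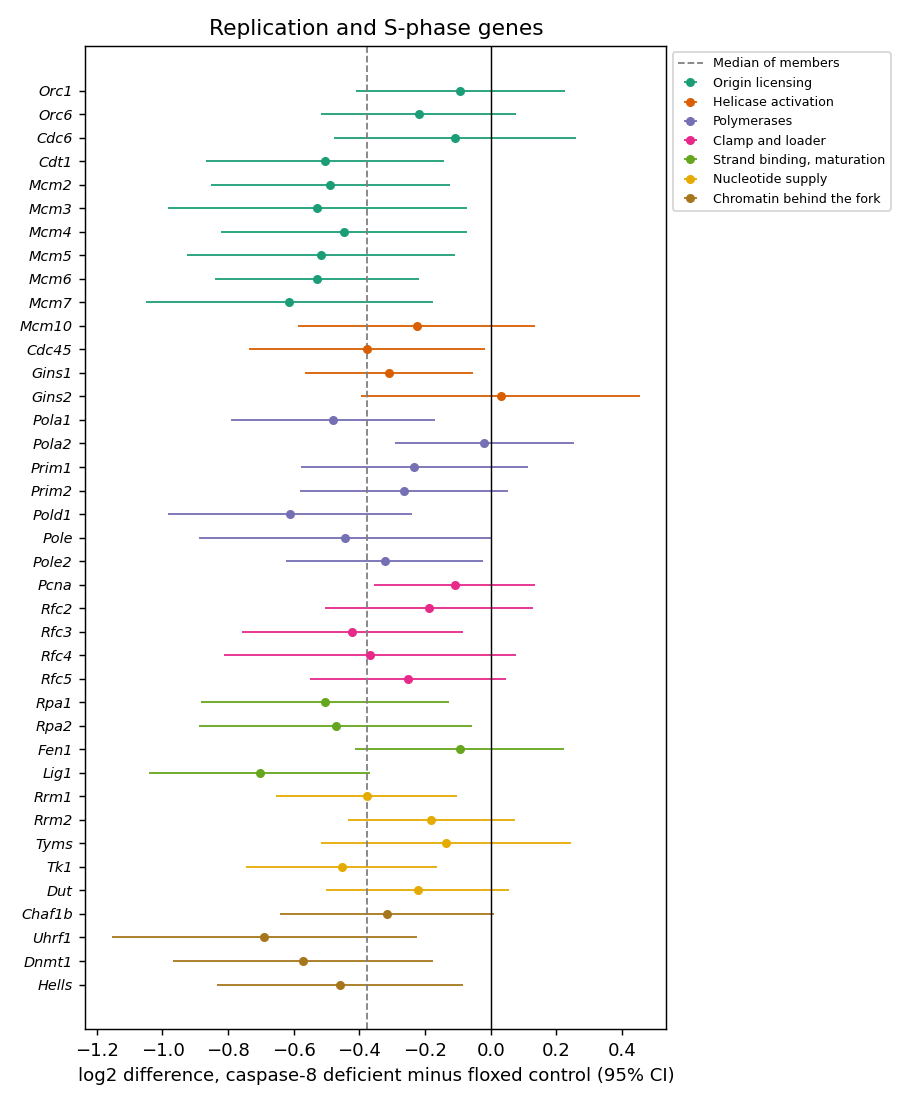
Log2 difference (x axis, caspase-8 deficient minus floxed control, n = 3 arrays per group) of each of the 39 genes (y axis), coloured by role. Points are limma estimates, bars their unadjusted 95% confidence intervals, and the dashed line is the median of −0.38. Only Gins2 lies above 0, and 21 intervals lie wholly below it.

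The arrays of a group were not alike. Relative to each gene's control mean, the 39 genes averaged 0.051, 0.085 and −0.14 on control replicates 1, 2 and 3. They averaged −0.30, −0.35 and −0.42 on deficient replicates 1, 2 and 3, so every deficient array lay below every control. Control replicate 2 gave the highest of the 6 values in 20 genes, and deficient replicate 3 the lowest in 20. Control replicate 3 stood nearest the deficient arrays, and in 12 genes it read at or below at least 1 of them, against 4 genes for control replicate 1 and 10 for control replicate 2. A measure of RNA quality set control replicates 1 and 2 apart, the excess of the 3′ over the 5′ control probe set of Gapdh, which is greater in degraded RNA. It was 0.68, 0.93 and 0.22 in controls 1, 2 and 3 and 0.21 to 0.29 in the deficient arrays. With that difference as a covariate, the members' median was −0.24 with 34 of 39 genes lower. Without control replicates 1 and 2, which leaves control replicate 3 as the only control, it was −0.23, with 35 of 39 lower. Both settings turn on control replicates 1 and 2 and are not separate checks. In 26 of the 39 genes the covariate moved the difference by over 1.5 times or turned its sign. Those that moved less are Orc6, Mcm6, Pola1, Prim2, Pole2, Pcna, Rfc3, Rfc5, Lig1, Rrm1, Rrm2, Tk1 and Dut. With it, the median of the licensing genes went from −0.50 to −0.23, of strand binding and maturation from −0.49 to −0.18 and of chromatin genes from −0.52 to −0.32, while the polymerases went from −0.32 to −0.37, so the order of the roles given further on does not hold there. The part of RNA quality in the result was not otherwise tested. Probe sets of spiked poly-A control RNAs averaged 8.97, 8.63 and 8.19 in controls 1, 2 and 3. They averaged 7.96, 7.84 and 7.28 in deficient replicates 1, 2 and 3, below every control. What this technical difference adds to the result was not tested.

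**Figure D2:**
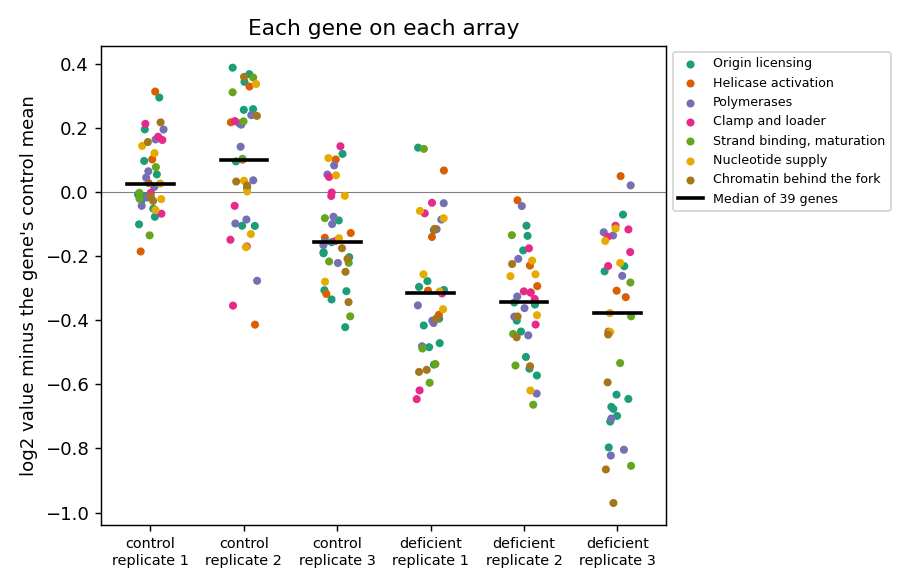
Log2 value of each gene minus its control mean (y axis) on each of the 6 arrays (x axis), with 1 point per gene coloured by role and sideways jitter for display only. Black bars are medians over the 39 genes; all 3 deficient medians, −0.32, −0.34 and −0.38, lie below the lowest control median of −0.16.

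The promoters of these genes were searched on both strands for the E2F-type letters TTTCGCGC and TTTGGCGC. RefSeq windows (GRCm38.p6) ran from 250 bases before to 50 after the gene start. Windows were at hand for 33 of the 39 measured genes, and 12 of the 33 (36.4%) held a match, against 0.929% of 27025 genes with a window. The genes were listed by function and many are known E2F targets, so this share describes the list and not the array values. A gene with several windows was counted where any of them matched. The CCAAT letters, searched on both strands, were found for 57.6% of the members with a window and 41.1% of all genes with one. In lists given further on, they were found for 76.9% of mitosis genes, 56.2% of other replication genes and 54.5% of crypt and stem cell genes. The 12 genes with an E2F-type match are Orc1, Cdt1, Mcm3, Mcm5, Mcm6, Mcm7, Pola1, Pole2, Rfc3, Lig1, Uhrf1 and Dnmt1. Their differences had a median of −0.52 (−0.70 to −0.09), and the 21 genes with windows but no match a median of −0.25 (−0.61 to −0.02). Of the other replication genes, 3 of 32 with a window (9.38%) held an E2F-type match, and their median difference was −0.22. Of the mitosis genes 1 of 26 (3.85%) held one, and of the crypt and stem cell genes 0 of 11. The medians of those lists were −0.36 and −0.59. These are descriptions of the lists and were not tested. Mcm4, Gins1, Gins2, Prim2, Pole and Rfc2 had no window.

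The 160 bases before the gene start are shown for 5 genes with a match there, and for Tk1, which has none in its window. Letters run 5′ to 3′ on the gene's strand, and capitals mark E2F-type matches, which overlap one another in Mcm6 and Mcm5. The regions are chr1:128359706-128359865 (minus strand) for Mcm6, chr8:75109349-75109508 (plus) for Mcm5, chr4:108579294-108579453 (plus) for Orc1, chr5:151651209-151651368 (minus) for Rfc3, chrX:93632156-93632315 (minus) for Pola1 and chr11:117826015-117826174 (minus) for Tk1.
Mcm6: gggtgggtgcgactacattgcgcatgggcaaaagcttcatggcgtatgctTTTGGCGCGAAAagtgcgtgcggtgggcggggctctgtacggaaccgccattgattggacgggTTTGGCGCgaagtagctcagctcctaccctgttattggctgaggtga
Mcm5: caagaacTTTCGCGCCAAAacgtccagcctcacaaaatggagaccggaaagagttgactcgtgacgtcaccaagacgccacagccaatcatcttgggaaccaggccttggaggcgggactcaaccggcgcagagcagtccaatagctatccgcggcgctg
Orc1: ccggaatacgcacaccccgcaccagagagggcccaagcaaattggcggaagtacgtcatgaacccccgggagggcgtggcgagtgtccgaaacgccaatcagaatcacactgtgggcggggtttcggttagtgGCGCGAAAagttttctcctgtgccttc
Rfc3: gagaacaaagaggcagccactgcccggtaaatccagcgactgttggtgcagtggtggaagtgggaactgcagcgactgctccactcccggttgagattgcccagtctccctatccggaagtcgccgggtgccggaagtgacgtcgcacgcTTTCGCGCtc
Pola1: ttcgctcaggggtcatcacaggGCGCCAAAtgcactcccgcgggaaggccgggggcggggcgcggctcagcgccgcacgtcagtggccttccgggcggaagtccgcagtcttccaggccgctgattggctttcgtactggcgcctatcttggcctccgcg
Tk1: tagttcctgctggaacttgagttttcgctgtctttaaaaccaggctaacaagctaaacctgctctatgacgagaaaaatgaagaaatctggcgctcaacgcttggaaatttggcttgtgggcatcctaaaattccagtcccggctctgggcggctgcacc
Mcm6 holds 3 matches in the stretch shown, Mcm5 2, and Orc1, Rfc3 and Pola1 1 each. The difference was −0.09 for Orc1 and −0.45 for Tk1. Whether E2F factors had a part in any of these differences was not tested.

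The 10 licensing genes had a median difference of −0.50, with 0 of 10 past the threshold and every estimate below 0. The 6 subunits of the Mcm2 to Mcm7 ring, the core of the replicative helicase, had similar values. Their differences lay between −0.45 for Mcm4 and −0.61 for Mcm7. In 5 of the 6 every deficient array lay below every control, against 11.2% of all genes and 16.6% of the brighter 9097. The 6 subunits were read on the same arrays and are not separate observations. Mcm7 read 10.55, 11.01 and 10.32 in control arrays against 10.16, 10.05 and 9.83 in deficient arrays. All deficient values were below all controls, and control replicate 2 was the highest (1.53-fold lower, difference −0.61, SE 0.19, limma adjusted p = 0.181). Mcm6, whose promoter held 3 matches, read 9.40, 9.40 and 9.11 against 8.91, 8.79 and 8.63. Its groups were likewise apart (−0.53, SE 0.13, adjusted p = 0.124). Mcm2, Mcm3 and Mcm5 stood at −0.49, −0.53 and −0.52. Mcm3 is the ring subunit whose groups overlapped, since control replicate 3 read 7.90 and deficient replicate 2 read 7.92. All 6 stood closer to 0 with the Gapdh covariate (−0.36 to −0.14) and without control replicates 1 and 2 (−0.34 to −0.11).

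The loaders of the ring gave unequal values. Cdt1, which brings the ring to the origin and is destroyed in S phase, read 9.59, 9.95 and 9.53 in control arrays against 9.40, 9.14 and 9.02 in deficient arrays. The groups did not overlap (−0.51, SE 0.16, limma adjusted p = 0.182), and control replicate 2 was again the highest. Orc1, the largest subunit of the origin recognition complex, and Cdc6, the ATPase that joins it, differed by −0.09 (95% confidence interval −0.41 to 0.23) and −0.11 (−0.48 to 0.26). Orc6, another subunit of that complex, stood at −0.22, also with overlapping groups. With control replicate 1 left out, Cdc6 turned to 0.04.

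The 4 genes that start the helicase had a median of −0.27, and 0 of 4 passed. Cdc45, a subunit of the active helicase, read 6.42, 6.93 and 6.46 in control arrays against 6.22, 6.29 and 6.17 in deficient arrays, with the groups apart and control replicate 2 well above the rest (−0.38, SE 0.16, limma adjusted p = 0.28). Gins1, a GINS subunit, read 7.08, 7.15 and 6.92 against 6.74, 6.75 and 6.72. The deficient values lay close together (SD 0.017) and below all controls (−0.31, SE 0.11, adjusted p = 0.231). Its partner Gins2 read 7.23, 6.51 and 7.02 against 6.99, 6.89 and 6.97. Control replicate 2 was here the lowest of all 6 arrays, and without it the difference turned from 0.03 to −0.18. Mcm10, which helps to activate the helicase, read 8.16, 8.27 and 7.74 against 7.92, 7.83 and 7.75, with overlap at control replicate 3 (−0.23, SE 0.16, adjusted p = 0.506). By the brightest of its other probe sets the difference was 0.16. That probe set was dim, with a mean level of 4.24 against 7.94 for the one used and a median gene level of 5.97.

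The 7 genes of the polymerases had a median of −0.32, and 0 of 7 passed. Pold1, the catalytic subunit of polymerase delta, which extends the lagging strand, read 8.19, 8.45 and 7.99 in control arrays against 7.81, 7.58 and 7.41 in deficient arrays. The groups did not overlap and the mean was 1.53-fold lower (−0.61, SE 0.16, limma adjusted p = 0.133). Pola1, the catalytic subunit of polymerase alpha, which starts each new strand, read 7.34, 7.32 and 7.18 against 6.87, 6.95 and 6.57, again without overlap (−0.48, SE 0.13, adjusted p = 0.153). Its accessory subunit Pola2 differed by −0.02 (95% confidence interval −0.29 to 0.25), and the primase subunits Prim1 and Prim2, of the same complex, by −0.23 and −0.27. Pole2, the second subunit of the leading-strand polymerase epsilon, read 7.40, 7.25 and 7.41 against 6.87, 6.99 and 7.23. Its groups were separated by a narrow margin (−0.32, SE 0.13, adjusted p = 0.269). The catalytic subunit Pole stood at −0.44 with overlapping groups.

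The sliding clamp and its loader had the second smallest median of the roles, −0.25, and 0 of 5 genes passed. Pcna, the ring that holds polymerases on DNA, was the brightest of the 39 genes. Its mean was 10.80 ± 0.05 in control and 10.69 ± 0.07 in deficient cells (SD, n = 3), a difference of −0.11 (95% confidence interval −0.35 to 0.14). Rfc3, a loader subunit, read 6.98, 6.64 and 6.81 in control arrays against 6.19, 6.39 and 6.58 in deficient arrays, and its groups were just apart (−0.42, SE 0.15, limma adjusted p = 0.217). The second Rfc3 probe set, at nearly the same mean level (6.58 against 6.60), stood at −0.19. Rfc4 read 8.0, 7.43 and 7.93 against 7.14, 7.47 and 7.64, and Rfc5 read 8.12, 7.81 and 7.95 against 7.64, 7.62 and 7.85. In these 3 loader genes control replicate 2 was the lowest control and deficient replicate 3 the highest deficient array, whereas deficient replicate 3 was the lowest array for all 6 ring subunits. Rfc4 stood at −0.37 (SE 0.19, adjusted p = 0.387), Rfc5 at −0.25 (SE 0.13, adjusted p = 0.377) and Rfc2 at −0.19, all with overlapping groups. Other probe sets of Rfc4 (−0.42) and Rfc2 (−0.43 and −0.32) stood lower than those used.

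Strand binding and maturation held the member with the largest difference. Lig1, the ligase that seals Okazaki fragments, read 9.03, 9.25 and 8.81 in control arrays against 8.44, 8.37 and 8.18 in deficient arrays. The lowest control stood 0.38 above the highest deficient array, and the mean was 1.63-fold lower (−0.70, SE 0.15, 95% confidence interval −1.04 to −0.37, limma adjusted p = 0.0788). It passed without dim genes (adjusted p = 0.0398) and with array weights (0.0148). Fen1, the flap nuclease that acts just before it, read 9.29, 9.42 and 9.23 against 9.45, 9.18 and 9.03, with deficient replicate 1 the highest of the 6 (−0.09, SE 0.14, adjusted p = 0.771). The second Fen1 probe set stood at −0.50. Rpa1, the large subunit of the single-strand binding protein, read 9.74, 10.23 and 9.65 against 9.34, 9.43 and 9.34, with the groups apart (−0.50, SE 0.16, adjusted p = 0.196). Rpa2, its middle subunit, read 8.13, 8.36 and 7.67 against 7.57, 7.51 and 7.67 (−0.47, SE 0.18, adjusted p = 0.252), and control replicate 3 and deficient replicate 3 nearly coincided. The other Rpa2 probe set, at a mean level of 6.06 against 7.82, stood at 0.07, and the other Rpa1 probe set at −0.38.

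The 5 nucleotide genes had the smallest median of the roles, −0.22, and 0 of 5 passed. Tk1, the thymidine kinase that peaks in S phase, read 8.12, 7.96 and 8.20 in control arrays against 7.73, 7.47 and 7.72 in deficient arrays, without overlap (−0.45, SE 0.13, limma adjusted p = 0.15). Rrm1, the large subunit of ribonucleotide reductase, read 8.89, 8.75 and 8.60 against 8.43, 8.36 and 8.31, also apart (−0.38, SE 0.12, adjusted p = 0.187). Rrm2, the small and cycling subunit, differed by −0.18 (95% confidence interval −0.44 to 0.07), and its other probe sets stood at 0.20 and −0.04. Dut, which removes dUTP, read 8.73, 8.44 and 8.66 against 8.35, 8.35 and 8.46, overlapping through deficient replicate 3 (−0.22, SE 0.12, adjusted p = 0.403). Tyms, thymidylate synthase, was the dimmest member at a mean of 4.07, below the median gene level of 5.97, and differed by −0.14.

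Among the 4 measured genes of chromatin behind the fork the median was −0.52, the largest of the roles, and 0 of 4 passed. Uhrf1, which recognises half-methylated DNA, read 9.0, 9.38 and 8.67 in control arrays against 8.46, 8.47 and 8.05 in deficient arrays, without overlap (1.61-fold lower, −0.69, SE 0.20, limma adjusted p = 0.165). Dnmt1, the methyltransferase that Uhrf1 recruits, read 8.90, 9.17 and 8.72 against 8.53, 8.48 and 8.06, again apart (−0.57, SE 0.17, adjusted p = 0.174). For both genes control replicate 2 was the highest array and deficient replicate 3 the lowest. Hells, a chromatin remodeller needed for DNA methylation, read 8.58, 8.40 and 8.12 against 7.80, 8.14 and 7.77. Control replicate 3 read lower than deficient replicate 2, so its groups overlapped (−0.46, SE 0.16, adjusted p = 0.223). Chaf1b, of the histone chaperone CAF-1, stood at −0.32.

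Other probe sets of the same genes gave a smaller median in the same direction. The 39 genes had 89 probe sets, of which 78 were lower in the deficient cells and 11 higher, and 0 passed when all probe sets were tested singly (smallest limma adjusted p = 0.098). The 50 that were not chosen as the brightest had a median of −0.29, with 40 lower. All 5 probe sets of Mcm3, all 4 of Mcm7 and all 3 each of Mcm5, Mcm6, Dnmt1 and Hells were lower, the Mcm7 ones between −0.41 and −0.61. Across the 39 genes, the Pearson r between mean level and signed difference was −0.37, so brighter ones tended to stand lower. Over all genes r was −0.04. Differences of both signs occur there, so this value is no background for their size. The r of −0.37 is a description, since the genes share the same 6 arrays. RMA understates differences of dim genes, and its part here was not tested.

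Further genes of the pathway were listed by function. Of 38 other replication genes, 0 passed, 32 were lower and 6 higher, with a median of −0.22. Pold4, the smallest subunit of polymerase delta, went against its partners. It read 7.45, 7.05 and 7.79 in control arrays against 8.36, 8.33 and 8.73 in deficient arrays, which all lay above the controls (2.07-fold higher, 1.05, SE 0.20, limma adjusted p = 0.0704). It passed with the replicate block (adjusted p = 0.0396), without dim genes (0.0326), with a variance trend and robust prior (0.0403) and with array weights (0.0135). It stood at 0.68 with the Gapdh covariate (limma adjusted p = 0.395) and at 0.69 without control replicates 1 and 2, against 1 control array. Pold2, the second subunit, stood at −0.56 (adjusted p = 0.0801) beside Pold1 at −0.61. Pclaf, a Pcna-binding protein, stood at −0.56 (adjusted p = 0.0742) and the nuclease Dna2 at −0.50.

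Of 16 other nucleotide genes 0 passed, with 14 lower and a median of −0.28. Cad, which starts pyrimidine synthesis, stood at −0.62, and the purine enzymes Atic, Gart and Paics at −0.53, −0.45 and −0.35. Of 21 genes of E2F and S-phase control 0 passed, with 17 lower and a median of −0.14. E2f8, an E2F repressor made in S phase, stood at −0.68 (limma adjusted p = 0.0944), Ccna2, the cyclin of S phase, at −0.55, its kinase Cdk2 at −0.43 and Fbxo5 at −0.45. Without probe sets whose names end in _x_at, _s_at or _a_at, Cdk2 stood at −0.20. E2f8, Ccna2 and Fbxo5 kept their values there. Of 23 checkpoint and repair genes 0 passed, with 19 lower and a median of −0.28. The uracil glycosylase Ung and the mismatch repair gene Msh6 stood at −0.73 and −0.65 (adjusted p = 0.094 and 0.0738), and Brca2 and Rad1 at −0.53 and −0.39.

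Lists of mitosis genes and of crypt and stem cell genes were read beside the replication genes. All 29 mitosis and spindle genes were lower, with a median of −0.36, and 0 passed, with the groups apart in 20 of 29, against 11.2% of all genes. Mki67, the proliferation marker, stood at −0.82, Cdca8 and Cdc20 at −0.58 and −0.54 and Kif11 at −0.53. Without probe sets whose names end in _x_at, _s_at or _a_at, Cdca8, Cdc20 and Kif11 stood at −0.17, −0.22 and −0.32. Mki67 kept its value there. Of 16 genes of crypt and stem cells 2 fell, Lgr5 and Sox9, 0 rose and 14 did not pass. The call of each was lost when any array but deficient replicate 1 was left out, at limma adjusted p = 0.0785 to 0.194 for Lgr5 and 0.0761 to 0.128 for Sox9. Neither passed with the mean of probe sets (−0.82, limma adjusted p = 0.0881, and −0.70, 0.055) or with the Gapdh covariate (−1.25, 0.357, and −0.83, 0.2). Without control replicates 1 and 2 Lgr5 stood at −1.25 and Sox9 at −0.85, against 1 control array. With the replicate block Sox9 did not pass either (adjusted p = 0.0541). The median of the 16 was −0.59. Relative to the control mean, crypt and stem cell genes averaged −0.40, −0.44 and −0.78 on the deficient arrays, with deficient replicate 3 the lowest as for the replication genes. No test of a difference between the lists was made.

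**Figure D3:**
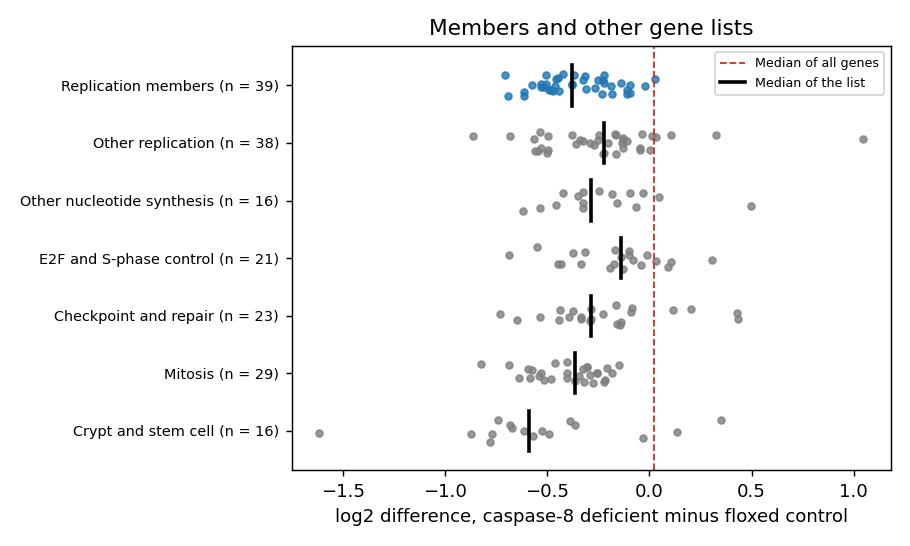
Log2 difference (x axis, caspase-8 deficient minus floxed control) of each gene in 7 lists (y axis), with 1 point per gene and vertical jitter for display. Black bars are list medians, −0.38 for the replication members, and the dashed line is the median of all genes at 0.022; Pold4 is the point at 1.05 and Lgr5 the point at −1.62.

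Markers of cell types were measured beside them. The 11 enterocyte markers averaged 12.2 to 12.3 in the controls and 12.6 on each deficient array, with 1 of 11 past the threshold, higher. The 7 goblet cell markers averaged 12 in each control and 11.1 to 11.3 in the deficient arrays, with 4 of 7 past it, lower. For 5 Paneth cell markers these were 11.5 to 12 and 9.60 to 9.91, with 5 of 5 past it, lower. Of the 7 enteroendocrine markers 1 passed, lower (8.85 to 9.10 against 8.54 to 8.64), and of 6 tuft cell markers 0 passed (5.96 to 6.63 against 5.76 to 6.02). Markers of 7 T cell genes averaged 7.59 to 8.03 in the controls and 7.30 to 7.92 in the deficient arrays, and 6 B and plasma cell genes 6.12 to 7.41 and 5.56 to 6.0, with 0 passing in either list. The 8 myeloid markers averaged 5.42 to 5.85 and 5.50 to 5.84, with 1 past the threshold, Lyz2, lower. The 8 fibroblast and muscle markers averaged 4.28 to 5.11 and 4.45 to 5.49, and 2 red blood cell markers 3.76 to 5.0 and 3.43 to 4.38, with 0 passing. The part of these shifts in the replication result was not tested. Without deficient replicate 1, the array high in endothelial markers, the members' median was −0.37 with 38 of 39 lower.

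**Figure D4:**
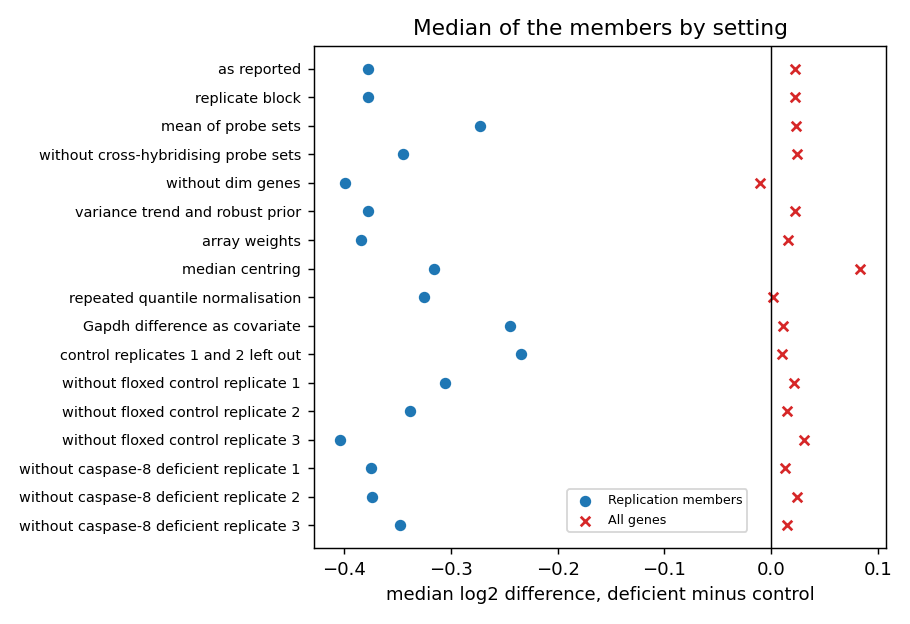
Median log2 difference (x axis, caspase-8 deficient minus floxed control) of the replication members (circles) and of all genes (crosses) under each processing setting (y axis). The members' median stays between −0.40 and −0.23, and that of all genes between −0.01 and 0.084. The setting labelled as without cross-hybridising probe sets left out all names ending in _x_at, _s_at or _a_at.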

How the data were processed

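The authors deposited log2 expression values made with RMA, per the submitters' processing notes, with version, settings and genome build not given in the sources used here. Values ran from 1.13 to 14.1 without detection calls, and precision is limited by the number of arrays. Of 45101 probe sets, 34945 were paired with 1 gene by GEO's platform annotation, which can be old, and 34741 of these were found in RefSeq. Control probe sets and those paired with no gene or with several were left out, while those not found in RefSeq were kept. Groups and replicate numbers came from the sample titles. The group difference was fitted with limma 3.58.1 in R 4.3.3 over 18193 genes, with no other term, and checked on simulated data. Its p-values reflect the spread between separate mice. Tables and plots were made with Python 3.11.15, pandas 2.3.3, numpy 2.4.6 and matplotlib 3.10.9.

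The members, gene lists and settings were chosen with earlier results of these data known. Values of every array are given for the 3 members of smallest p in each role, or for all in roles of 4 listed genes. Of other lists, genes that passed or else the 4 of smallest p are named. Alternatives were the replicate number as a block, other choices of probe set, leaving out dim genes (below the median level), another variance model, array weights, 2 normalisations, 2 settings on RNA quality, and leaving out each array.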

Additional observations from a re-analysis of the deposited data

How the results depend on the processing

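The members' median kept its sign under all 16 alternatives. It was −0.27 with the mean of probe sets, −0.24 with the Gapdh covariate and −0.23 with control replicates 1 and 2 left out, and −0.40 to −0.31 when 1 array was left out. The count of members that passed was 0 except for 1 without dim genes (Lig1) and 7 with array weights (Cdt1, Mcm6, Pold1, Rfc3, Lig1, Rrm1 and Tk1), and 0 when 1 array was left out. Over all genes, 141 passed, against 298 without dim genes, 252 with a variance trend and robust prior, 1406 with array weights, 36 with the Gapdh covariate, 5 with control replicates 1 and 2 left out and 18 to 251 when 1 array was left out. With the replicate block 113 genes and 0 members passed. Same-numbered arrays had correlations of deviations of 0.077, 0.105 and −0.007, and the other combinations ran from −0.128 to 0.012. Deviations from a mean of 3 arrays sum to 0, so these values cannot settle whether replicates were paired. The titles name no pairs, and the numbers were not taken as pairs.

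Members near 0 changed sign. Mcm10 read 0.16 without probe sets whose names end in _x_at, _s_at or _a_at, 0.058 with the Gapdh covariate and 0.092 with control replicates 1 and 2 left out. Cdc6 read 0.091 and 0.20 in the last pair of settings, and −0.26 to 0.038 when 1 array was left out, highest without control replicate 1. Pola2 read 0.13 and 0.14 there, 0.042 with median centring, 0.018 with repeated quantile normalisation, and −0.098 to 0.051 when 1 array was left out, highest without control replicate 2. Tyms read 0.16 and 0.14, and −0.28 to 0.031, highest without control replicate 2. Fen1 read 0.011 with the covariate. Gins2 read −0.19 with array weights, −0.17 with the covariate, −0.071 with both controls left out, and −0.18 (without control replicate 2) to 0.19 (without control replicate 1) when 1 array was left out. The cause was not tested.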

Other observations

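A few genes outside the members are given here as values, chosen after their values were seen. Of these, Samhd1 and Mdm2 had higher means in the deficient cells and Rfc1 a lower one. Samhd1, which breaks down deoxynucleotides, averaged 9.06 ± 0.42 in the controls and 9.55 ± 0.03 in the deficient cells (0.50, SE 0.20, limma adjusted p = 0.269), and its other probe sets ran from −0.15 to 0.82. Mdm2, the ligase that restrains p53, averaged 8.34 ± 0.20 and 8.76 ± 0.16 (0.43, SE 0.14, adjusted p = 0.21), with all deficient arrays above all controls, while its other probe sets stood at −0.04 and −0.15. Rfc1, the large subunit of the clamp loader, stood at −0.86 (SE 0.23, adjusted p = 0.134), and its 3 probe sets lay between −0.90 and −0.59, below all 4 loader subunits among the members.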
